A study of Mus musculus with 20 samples.

Results

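Transcript levels were compared between growing oocytes (GO) and non-growing oocytes (NGO) of 10-day-old control mice. The genes described are the 12131 of 53722 in the oocyte expression table that had at least 1 TPM in at least 2 of the 4 control libraries of postnatal day 10 (P10). TPM is a gene's share of the RNA of a library, corrected for gene length and scaled to the same total in every library, so a rise of some genes lowers the share left to others. Both groups were Chd4 f/f without a Cre transgene (named Gctrl), from ovaries of a strain mix of C57BL/6, 129S1/Sv and FVB/NJ, with 2 libraries each. They are the controls for a knockout of Chd4, a chromatin remodelling ATPase, and carry the floxed alleles. In knockout oocytes of the same age, named GcKO, the f/f alleles were combined with Gdf9-iCre, whose promoter acts in oocytes. Control NGO of P1 and P5 were Chd4 f/+ with Ddx4-Cre and differ in genotype from the P10 controls. Chd4 knockout NGO of P1 and P5, named DcKO, had 2 libraries each. They are not compared here but entered the gene filter and the estimate of spread. The labels give no sort or gate, no size limit that separates the oocyte classes, and no statement that replicates came from separate animals. A p-value here therefore reflects only how far libraries of the same group spread, which may be technical. This spread was pooled over all oocyte groups, of other ages and genotypes too, and not taken from the compared groups alone.

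In the mouse ovary, most oocytes rest in primordial follicles, small and surrounded by flat cells, arrested late in meiotic prophase since around birth. A few at a time are recruited to grow. A growing oocyte enlarges many times, secretes the zona pellucida that will meet the sperm, signals to the granulosa cells around it through GDF9 and BMP15, and lays down the RNAs and proteins on which the embryo depends until its own genome is active. The comparison of GO with NGO of the same age addresses how the transcript pool differs between these states.

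The libraries held 20.56 and 19.51 M reads in GO and 22.63 and 19.63 M in NGO, recovered from TPM and exon lengths. At TPM 1 or more, 11579 and 11061 genes were detected in GO, against 10940 and 10213 in NGO. The log2 values of replicates correlated across genes with r of 0.93 for GO and 0.893 for NGO, and those of a GO and an NGO library with r of 0.64 to 0.653; genes are not independent replicates. The 10 most abundant genes took 20.1% and 19.4% of TPM in GO, against 16.3% and 15.9% in NGO, and the top 100 took 44.8% and 43.6% in GO, against 37.7% and 36.3% in NGO.

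Growing oocytes differed from non-growing ones across a large share of the transcripts detected. Levels were tested as log2(TPM + 1) with limma over all 16 oocyte libraries, and a gene is said to have risen or fallen where the two-sided Benjamini-Hochberg adjusted p was below 0.05. On this scale the change of genes with low TPM is understated. Of the 20470 genes tested, 4968 (24.3%) passed, 2257 (11%) higher and 2711 (13.2%) lower in GO. Among the 12131 genes described, 4905 (40.4%) passed, of which 2216 rose (18.3%) and 2689 fell (22.2%), and the median difference was -0.27, against 0 over the genes tested. A gene entered the 12131 by being detected in these libraries, so its share past the test is above the background by construction. In bulk RNA, fewer cells of a type and less RNA per cell cannot be told apart.

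Large changes were mostly rises. Genes that rose over 4-fold numbered 1657 and those that fell over 4-fold 1270, while 493 rose and 138 fell over 16-fold. There were 1436 genes at TPM 1 in both GO libraries and neither NGO library, of which 1146 passed the test, and 871 with the opposite pattern, of which 556 passed. Among the 7263 genes at TPM 1 in all 4 libraries, 794 rose and 1850 fell. All GO values lay above all NGO values for 3561 of the 12131 genes described and below them for 4777. With 2 libraries a group, such separation often arises without a true difference. These counts are therefore no test, and 4905 of the genes described passed the test. The balance of rises and falls depends on the scaling. Against the mean over all oocyte libraries, the median gene was offset by -0.58 and -0.58 in GO and -0.03 and -0.02 in NGO (log2). When each library was scaled to remove its offset, which raises GO against NGO, 3149 tested genes rose and 1810 fell. Directions that this scaling turns are named below.

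**Figure D1:**
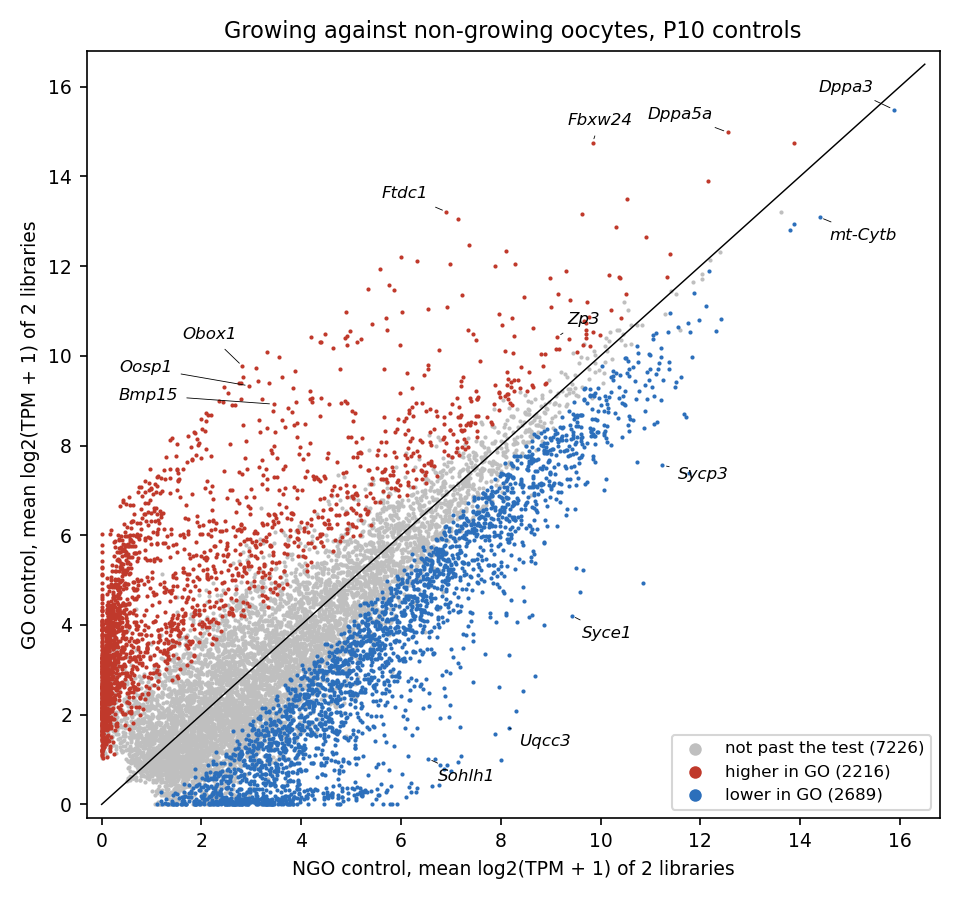
Mean log2(TPM + 1) of the 2 GO control libraries (vertical axis) against that of the 2 NGO control libraries (horizontal axis) for 12131 genes, each point 1 gene, with the line of equal level. Red points are the 2216 genes that rose in GO and blue points the 2689 that fell; the red points reach farther from the line, 493 of them by over 16-fold.

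Dppa3, a maternal effect gene whose protein shields the egg's genome from loss of DNA methylation, was the most abundant transcript of both classes, with 45242 and 46799 TPM in GO, against 58013 and 62507 TPM in NGO. Its log2 difference of -0.39 (SE 0.08, limma adjusted p = 0.003) became 0.17 under median scaling and was 0 after quantile normalization, so its direction depends on the scale. Dppa5a, an RNA-binding protein of pluripotent cells, had 33061 and 31673 TPM in GO, against 6051 and 5936 TPM in NGO, and rose by 2.43 (SE 0.11, limma adjusted p = 2.3e-07). The GO levels of Dppa5a were all above those of NGO, and it stood second in GO.

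The other transcripts among the 10 most abundant of GO included chaperones, enzymes and members of oocyte gene families. Fbxw24, of an oocyte F-box family, had 29307 and 25902 TPM in GO, against 806 and 1041 TPM in NGO. Fbxw15 had 9189 and 8985 TPM in GO, against 650 and 966 TPM in NGO. Ftdc1, named for a ferritin-like domain, had 8778 and 10219 TPM in GO, against 63.1 and 224 TPM in NGO. These 3 genes rose by 4.91, 3.52 and 6.30 on the log2 scale. Spin1, a reader of histone methylation that is abundant in oocytes, rose by 2.98, with 12242 and 11017 TPM in GO, against 1561 and 1391 TPM in NGO. Ldhb, the lactate dehydrogenase subunit of oocytes, had 14663 and 15939 TPM in GO, against 3920 and 5333 TPM in NGO. Hsp90aa1, an HSP90 chaperone, had 31858 and 23910 TPM in GO, against 16629 and 13599 TPM in NGO, a rise of 0.88 (limma adjusted p = 0.0063). That call was lost without GO replicate 1 (0.67, adjusted p = 0.081), without NGO replicate 2 (0.73, adjusted p = 0.058) and after quantile normalization (0.12, adjusted p = 0.54).

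Most of the other abundant genes of NGO named here fell, a direction that choosing genes by NGO level favours. The mitochondrial transcript mt-Cytb had 8462 and 8963 TPM in GO, against 22970 and 20129 TPM in NGO, and fell by 1.30. Canx, a chaperone of the endoplasmic reticulum, had 8243 and 7521 TPM in GO, against 17027 and 13387 TPM in NGO. Gtsf1, a piRNA pathway factor, had 7311 and 7075 TPM in GO, against 15741 and 12743 TPM in NGO. Both fell, by 0.94 and 0.98, but under median scaling Canx no longer passed (-0.38, adjusted p = 0.27). Hsp90ab1, the constitutive HSP90, fell by 1.58 with 1578 and 2092 TPM in GO, against 4938 and 6008 TPM in NGO, opposite in sign to Hsp90aa1. Actb, the cytoplasmic actin, fell by 1.76 with 1488 and 1528 TPM in GO, against 5638 and 4607 TPM in NGO. Ubb, a ubiquitin gene, and Ptges3, a co-chaperone of HSP90, did not pass the test, at -0.39 and -0.08, which were 0.16 and 0.48 under median scaling. With voom weights on recovered reads, Fbxw24, Ldhb, Spin1, mt-Cytb, Canx, Gtsf1, Hsp90ab1 and Dppa3 kept their sign (5.03 for Fbxw24, -0.30 for Dppa3) but did not pass, with limma adjusted p-values from 0.101 for Gtsf1 to 0.984 for Fbxw24; the cause was not tested.

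The largest changes were ranked among genes past the test with a mean of at least 5 TPM in a group, predicted models aside. The rule also required that the GO and NGO libraries did not overlap. The 10 largest rises were of genes known mainly from oocytes and early embryos. They were Obox1, Obox5 and Obox7 (oocyte-specific homeobox factors), Oosp1 and Oosp3 (oocyte-secreted proteins), Nlrp9c (an oocyte NLR protein), Oog4 (an oogenesin with leucine-rich repeats), Fbxw23, Tcstv3 (a gene of early cleavage embryos) and D16Ertd519e. Their log2 differences ran from 6.35 to 6.95. Obox1 had 869 and 875 TPM in GO, against 6.27 and 5.87 TPM in NGO (6.95, SE 0.53, limma adjusted p = 3.6e-06). Oosp1 had 568 and 726 TPM in GO, against 7.60 and 6.03 TPM in NGO (6.37, SE 0.38, limma adjusted p = 8.6e-07). Separation of the libraries was thus set by the rule, and none of these 10 genes was absent from NGO in both libraries.

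Many of these genes belong to families of close copies that sit side by side in the genome. Of the 34 tested genes of the oocyte multigene families (Fbxw, Obox, Oog, Oosp, Omt2, Oas1, Khdc1 and Tcl1 relatives), 27 rose and none fell, with a median difference of 4.88, against 0 over the genes tested. Together they held 9.54% and 9.16% of TPM in GO, against 0.594% and 0.797% in NGO. The 15 members of the Fbxw cluster on chromosome 9, from 109139447 to 109790670 (GRCm38, GENCODE M21), all rose, with a median of 5.59. Fbxw13 had 4657 and 4765 TPM in GO, against 51.8 and 76.9 TPM in NGO, and Fbxw18 had 5009 and 5261 TPM in GO, against 243 and 313 TPM in NGO. Oosp1, Oosp2 and Oosp3 lie within 11647279 to 11711874 of chromosome 19 and rose by 6.37, 4.11 and 6.70. Omt2a, which encodes a small protein of oocytes, had 6172 and 5144 TPM in GO, against 117 and 225 TPM in NGO. Oog3 and Oog2, of the oogenesin cluster on chromosome 4, rose by 6.24 and 5.13. Reads of close copies can be shared, and how they were counted is not given in the sources used here, so levels of single copies are less certain than that of the family.

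The start regions of 4 of the steepest risers and of 2 steep fallers are shown because they differ in the features counted over all promoters below. Each is the 300 bases from 250 before to 50 after the annotated start (RefSeq, GRCm38.p6), in the direction of transcription, with capitals on every CG and on any TATA that begins within 60 bases before the start.
Obox1, chr7:15547007-15547306, plus strand: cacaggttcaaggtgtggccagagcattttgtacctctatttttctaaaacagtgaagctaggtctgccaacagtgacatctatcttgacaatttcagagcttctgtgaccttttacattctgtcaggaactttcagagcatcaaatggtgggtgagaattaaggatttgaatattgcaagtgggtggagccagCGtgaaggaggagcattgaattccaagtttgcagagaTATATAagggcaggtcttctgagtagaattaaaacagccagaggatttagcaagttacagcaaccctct
Obox5, chr7:15750120-15750419, plus strand: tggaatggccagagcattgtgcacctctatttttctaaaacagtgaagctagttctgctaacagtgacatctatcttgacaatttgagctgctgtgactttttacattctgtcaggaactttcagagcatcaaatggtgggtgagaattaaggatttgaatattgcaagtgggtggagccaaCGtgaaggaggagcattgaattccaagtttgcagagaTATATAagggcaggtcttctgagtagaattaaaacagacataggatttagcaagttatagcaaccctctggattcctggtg
Obox7, chr7:14659458-14659757, plus strand: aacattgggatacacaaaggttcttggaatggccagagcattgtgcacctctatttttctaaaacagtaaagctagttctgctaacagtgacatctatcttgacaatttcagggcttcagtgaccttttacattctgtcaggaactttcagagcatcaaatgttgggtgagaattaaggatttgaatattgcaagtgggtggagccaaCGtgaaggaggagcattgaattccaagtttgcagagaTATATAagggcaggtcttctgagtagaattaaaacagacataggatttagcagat
Oog4, chr4:143450275-143450574, minus strand: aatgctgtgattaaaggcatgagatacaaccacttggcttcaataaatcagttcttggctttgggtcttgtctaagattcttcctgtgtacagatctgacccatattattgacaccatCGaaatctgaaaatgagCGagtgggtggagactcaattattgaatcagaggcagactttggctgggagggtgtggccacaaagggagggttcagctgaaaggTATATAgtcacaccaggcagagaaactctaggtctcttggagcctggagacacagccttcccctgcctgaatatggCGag
Uqcc3, chr19:8880884-8881183, minus strand: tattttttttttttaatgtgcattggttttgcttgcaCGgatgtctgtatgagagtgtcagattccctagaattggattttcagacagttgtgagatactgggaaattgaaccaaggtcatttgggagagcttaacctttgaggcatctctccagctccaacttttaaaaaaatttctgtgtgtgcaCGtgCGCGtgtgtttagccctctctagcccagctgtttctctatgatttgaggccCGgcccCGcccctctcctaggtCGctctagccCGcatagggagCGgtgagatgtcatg
Syce1, chr7:140787805-140788104, minus strand: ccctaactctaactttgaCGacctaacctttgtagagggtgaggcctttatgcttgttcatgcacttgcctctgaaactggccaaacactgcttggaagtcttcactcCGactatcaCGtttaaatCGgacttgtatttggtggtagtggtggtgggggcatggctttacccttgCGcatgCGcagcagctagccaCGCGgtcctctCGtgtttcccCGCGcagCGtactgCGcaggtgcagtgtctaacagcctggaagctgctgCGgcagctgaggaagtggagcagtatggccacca

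The 3 Obox promoters share long stretches. Each pair was laid side by side with 1 shift and no gaps. Those of Obox1 and Obox7 then matched at 268 of 286 positions, those of Obox1 and Obox5 at 225 of 288 and those of Obox5 and Obox7 at 206 of 274. The longest identical runs of these pairs were 74, 82 and 134 bases. Their TATA run is in the same stretch but begins 19, 31 and 5 bases before the annotated starts of Obox1, Obox5 and Obox7, and that of Oog4 begins 30 bases before. These 4 promoters hold 1, 1, 1 and 3 CG, against 9 in Uqcc3 and 14 in Syce1, which have no TATA there.

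The same features were counted over all protein-coding genes as a description. Promoters were matched for 7372 of 9112 protein-coding genes described, for 179 of the 223 that rose by over 4 log2 units and for 82 of the 93 that fell by over 4. The steepest risers had a median of 5 CG and 50.7% GC per promoter, against 15.5 CG and 56.8% GC in the steepest fallers, 21 CG and 60.3% GC in all genes described and 11 CG and 55.2% GC in the 20834 genes of the table with a promoter. TATA between 40 and 16 bases before the start was in 10.9% of the promoters of the steepest risers, 4.88% of the steepest fallers, 3.14% of all genes described and 6.56% of all promoters. The letters CANNTG, an E-box, which reads the same on both strands, were in 76.2%, 75.9%, 63.6% and 70.4% of these sets. TAATTG on either strand, a core bound by homeobox proteins, was in 12.3%, 4.27%, 5.25% and 7.36%. Genes with several starts entered by their mean, TATA also reads the same on both strands, and no test was run. For risers of any size fewer than 80% had a promoter (78.8%), so no value is given.

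Genes for the oocyte's own secreted proteins mostly rose. Of 7 tested, 6 rose and none fell, with a median of 4.11, the value of Oosp2. Oosp1, Oosp2 and Oosp3 are among the 6 and were also counted in the multigene families above. Bmp15, a growth factor that acts on granulosa cells, had 599 and 391 TPM in GO, against 5.72 and 16.7 TPM in NGO (5.47, SE 0.59, limma adjusted p = 3.6e-05). Gdf9, its partner, had 720 and 656 TPM in GO, against 110 and 197 TPM in NGO (2.22, SE 0.41, limma adjusted p = 0.0016). Gdf9 was thus already at 110 TPM or more in NGO, where Bmp15 was below 17 TPM. Oosp2 had 3954 and 4270 TPM in GO, against 146 and 384 TPM in NGO. Fgf8, a growth factor that acts on granulosa cells, was low throughout, with 6.44 and 2.98 TPM in GO, against 0.192 and 0 TPM in NGO; its rise of 2.32 was not called without GO replicate 1 (adjusted p = 0.079) or NGO replicate 2 (adjusted p = 0.052). Bmp6, also of the BMP family, had 14.0 and 12.8 TPM in GO, against 3.12 and 6.16 TPM in NGO, and did not pass (limma adjusted p = 0.091).

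Of 7 tested genes of the zona pellucida and of sperm contact, 3 rose and 1 fell, with a median of 1.11; under median scaling 6 rose and 1 fell, with a median of 1.66. Zp3, the zona glycoprotein that takes part in sperm binding, had 1376 and 1360 TPM in GO, against 442 and 709 TPM in NGO (1.29, SE 0.33, limma adjusted p = 0.013). That call was lost without GO replicate 1, GO replicate 2 or NGO replicate 1, with adjusted p of 0.071, 0.068 and 0.12. Zp2, also a structural zona protein, had 2479 and 2233 TPM in GO, against 1588 and 1267 TPM in NGO, and did not pass (0.73, limma adjusted p = 0.078). Zp1, which links zona filaments, had 105 and 91.6 TPM in GO, against 47.0 and 60.4 TPM in NGO, at 0.87 and a limma adjusted p of 0.05. The GO and NGO values of all 3 zona genes did not overlap, and under median scaling Zp1 and Zp2 passed, at 1.42 and 1.28. Astl, the protease that hardens the zona after fertilization, had 65.6 and 68.7 TPM in GO, against 16.96 and 2.90 TPM in NGO, and rose by 3.02 (limma adjusted p = 0.0055), or by 1.92 without NGO replicate 2 (adjusted p = 0.051). Cd9, the egg tetraspanin needed for fusion with sperm, had 563 and 877 TPM in GO, against 253 and 418 TPM in NGO; its rise of 1.11 was not called without NGO replicate 1 (adjusted p = 0.097) or GO replicate 2 (adjusted p = 0.12). Cd81, a related tetraspanin, fell to 0.0914 and 0.0930 TPM in GO, against 4.73 and 7.50 TPM in NGO. Izumo1r, the sperm receptor JUNO, had 13.0 and 21.1 TPM in GO, against 11.8 and 1.23 TPM in NGO, and did not pass (limma adjusted p = 0.15).

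**Figure D2:**
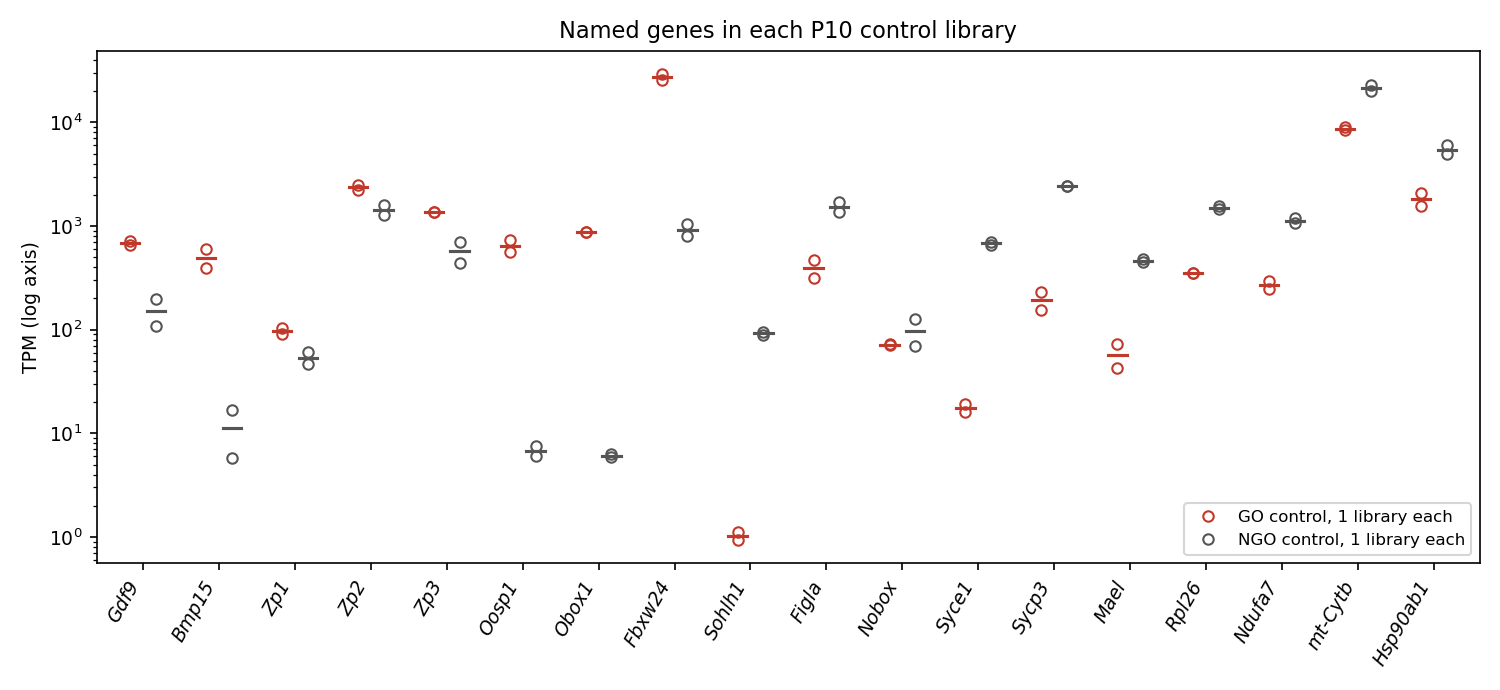
TPM (log axis) of 18 named genes in each P10 control library, with GO left (red) and NGO right (grey) for each gene, circles for single libraries and bars for the mean of 2. Signals, family genes and zona genes stand higher in GO, while Sohlh1, Figla, the meiotic genes Syce1 and Sycp3, and Rpl26, Ndufa7 and mt-Cytb stand higher in NGO; Nobox overlaps.

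Transcripts of maternal proteins stored for the embryo were also examined. Of 17 tested genes of the subcortical maternal complex and the oocyte NLRP family, 13 rose and none fell, with a median of 2.35. Nlrp9b had 151 and 131 TPM in GO, against 1.11 and 1.07 TPM in NGO. Nlrp2 had 139 and 125 TPM in GO, against 6.09 and 1.51 TPM in NGO, and Nlrp4a 340 and 249 TPM in GO, against 8.59 and 22.7 TPM in NGO. Zbed3 and Khdc3, components of the complex, rose by 3.27 and 2.35. Other members of the complex were already at similar levels in NGO. Ooep had 1729 and 1588 TPM in GO, against 1792 and 1854 TPM in NGO (-0.14, limma adjusted p = 0.62), and Nlrp5 had 663 and 419 TPM in GO, against 427 and 394 TPM in NGO (0.36, limma adjusted p = 0.57). Under median scaling these were 0.42 and 0.92, and Nlrp5 passed (adjusted p = 0.034). Ooep and Nlrp5 were chosen after their values were seen.

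Of 19 tested maternal effect genes for chromatin and RNA, 12 rose and 1, Dppa3, fell, with a median of 1.52. H1f8, the oocyte linker histone, had 1399 and 1664 TPM in GO, against 166 and 158 TPM in NGO (3.23, SE 0.24, limma adjusted p = 2.9e-06). Zar1l and Zar1, RNA-binding proteins of oocyte messenger storage, had 231 and 281 TPM and 176 and 162 TPM in GO, against 2.75 and 2.88 TPM and 8.64 and 3.71 TPM in NGO. Dnmt1, the maintenance DNA methyltransferase, had 67.9 and 67.1 TPM in GO, against 5.39 and 6.61 TPM in NGO. Zfp57, which protects imprints, rose by 1.54 and Tet3, the dioxygenase that acts on methylated DNA in the zygote, by 3.03. Of 16 tested enzymes of DNA methylation and of histone H3K4 or H3K36 methylation, 3 rose and 3 fell, with a median of -0.06 that became 0.43 under median scaling (6 rose, 1 fell), 0.03 after quantile normalization and 0.06 with voom. Among them Dnmt3l, the cofactor of de novo methylation in growing oocytes, had 3.96 and 11.9 TPM in GO, against 0.130 and 0.0478 TPM in NGO.

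Genes for the storage and control of messenger RNA moved in the same direction in part. Of 27 tested, 10 rose and 2 fell, with a median of 0.80. Pabpc1l, the embryonic poly(A)-binding protein, had 14.7 and 15.9 TPM in GO, against 0.333 and 0.0525 TPM in NGO, whereas Pabpc1, its somatic relative, had 20.6 and 10.9 TPM in GO, against 69.9 and 71.0 TPM in NGO. Eif4e1b, the oocyte form of a cap-binding factor, had 41.3 and 32.2 TPM in GO, against 0.460 and 0.317 TPM in NGO. Btg4, an adaptor for deadenylation at maturation, rose by 2.28. Ddx6, a helicase of RNA granules, fell by 1.52. Pabpc1 and Ddx6 were chosen after their values were seen. Of 25 tested genes of meiotic arrest and maturation, 5 rose and 3 fell, with a median of 0.67; under median scaling 11 rose and 3 fell, with a median of 1.11, and with voom 9 rose and 2 fell. Ccnb1, cyclin B1, had 273 and 291 TPM in GO, against 92.0 and 141 TPM in NGO, while Cdk1, the kinase it activates, had 30.9 and 30.6 TPM in GO, against 104 and 89.3 TPM in NGO. Gja4, the gap junction protein that joins the oocyte to granulosa cells, fell to 84.5 and 72.8 TPM in GO, against 304 and 270 TPM in NGO.

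Of 14 tested genes of pluripotency and primordial germ cells, 7 rose and 1 fell, with a median of 2.14. Sall4, a zinc finger factor of oocytes and stem cells, had 372 and 345 TPM in GO, against 25.6 and 9.71 TPM in NGO. Nanos2 and Lin28a, RNA-binding proteins of germ cells, were low in GO, at 15.8 and 23.5 TPM and at 8.70 and 7.44 TPM, and below 1 TPM in NGO. Zfp42, a zinc finger factor of stem cells, went the other way, with 0.210 and 0.214 TPM in GO, against 50.4 and 29.6 TPM in NGO (-5.03, SE 0.81, limma adjusted p = 0.00069).

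Of 12 tested genes on a list of oocyte transcription factors, 5 fell and 1 rose, with a median of -0.68. Under median scaling 3 fell and 2 rose, with a median of -0.13, and with voom 3 fell and none rose. Sohlh1, a basic helix-loop-helix factor of primordial oocytes, had 1.12 and 0.935 TPM in GO, against 95.2 and 89.2 TPM in NGO (-5.52, SE 0.29, limma adjusted p = 4.2e-07). Its partner Sohlh2 had 0.111 and 3.06 TPM in GO, against 24.1 and 11.8 TPM in NGO, a fall of 3.08 that did not pass without GO replicate 1 (adjusted p = 0.069). Figla, required for primordial follicles and zona genes, had 316 and 468 TPM in GO, against 1381 and 1704 TPM in NGO (-1.99, SE 0.22, limma adjusted p = 4.5e-05; with voom -1.88, adjusted p = 0.052). The fall of Figla therefore left it well above 100 TPM, while Sohlh1 was near 1 TPM.

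Taf4b, a germ cell subunit of TFIID, had 12.6 and 20.4 TPM in GO, against 43.8 and 59.8 TPM in NGO; its fall of 1.61 was not called under median scaling (adjusted p = 0.11), without GO replicate 1 (adjusted p = 0.11) or without NGO replicate 2 (adjusted p = 0.089). Sub1, a transcriptional coactivator, had 3783 and 3789 TPM in GO, against 4602 and 4602 TPM in NGO, and its difference of -0.28 was 0.27 under median scaling and not called with voom (-0.16, adjusted p = 0.87). Dynll1, a dynein light chain on this list, rose by 0.60 (limma adjusted p = 0.049). That call was lost without GO replicate 1, GO replicate 2 or NGO replicate 2 (adjusted p of 0.21, 0.088 and 0.26), with no filter (0.062) and with voom (0.13). Nobox, a homeobox factor of oocyte growth, had 72.0 and 71.0 TPM in GO, against 126 and 69.6 TPM in NGO. Tbpl2, the oocyte TBP, had 394 and 590 TPM in GO, against 380 and 584 TPM in NGO. The libraries overlap for Nobox and Tbpl2, which were chosen after their values were seen and did not pass. Of 18 tested genes of PI3K, mTOR and dormancy control, none rose and 3 fell (16.7%), against 11% and 13.2% of all genes tested. Their median of -0.18 was 0.14 under median scaling. Eif4ebp1, an inhibitor of translation regulated by mTOR, had 2.28 and 2.56 TPM in GO, against 29.2 and 25.8 TPM in NGO.

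Of 40 tested genes of meiotic prophase, 16 fell and 1 rose, with a median of -0.89. Syce1, of the synaptonemal complex, had 15.96 and 19.2 TPM in GO, against 708 and 660 TPM in NGO (-5.21, SE 0.19, limma adjusted p = 4.7e-08). Sycp3, of its axial elements, had 229 and 154 TPM in GO, against 2417 and 2423 TPM in NGO (-3.68, SE 0.13, limma adjusted p = 4.7e-08). The 2 NGO libraries differed little for these genes, and GO kept Sycp3 above 100 TPM. Smc1b, the meiotic cohesin that holds sister chromatids until the egg divides, had 198 and 198 TPM in GO, against 1812 and 1610 TPM in NGO. Sycp1, of the transverse filaments, fell by 2.23, and Tex11, an X-linked crossover factor, by 3.90. The exception was Mei4, needed for meiotic DNA breaks, with 54.3 and 52.5 TPM in GO, against 0.472 and 0.347 TPM in NGO (5.27, limma adjusted p = 0.00027), which was chosen after its values were seen.

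Of 19 tested genes of the piRNA pathway, which silences transposons in germ cells, 5 fell and 1 rose, with a median of -0.33 that was 0.11 under median scaling. Mael had 42.3 and 72.5 TPM in GO, against 484 and 445 TPM in NGO (-3.04, SE 0.23, limma adjusted p = 3.6e-06). Mov10l1, the helicase that feeds piRNA precursors into the pathway, had 1.07 and 3.43 TPM in GO, against 37.1 and 35.6 TPM in NGO. Tdrd12, a Tudor protein of the pathway, had 115 and 141 TPM in GO, against 11.1 and 10.5 TPM in NGO, and rose by 3.45.

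Genes of the translation and energy machinery that passed the test were mostly lower in GO. Of 84 tested genes of cytoplasmic ribosomal proteins, 73 fell and 3 rose, with a median of -1.52, and their share of TPM was 1.73% and 1.94% in GO, against 4.67% and 4.90% in NGO. Under median scaling 56 fell and 4 rose, with a median of -0.998. Rpl26 had 353 and 349 TPM in GO, against 1465 and 1549 TPM in NGO (-2.10, SE 0.09, limma adjusted p = 2.3e-07). Rplp1, of the ribosomal stalk, had 559 and 721 TPM in GO, against 2732 and 3015 TPM in NGO. The genes that rose, chosen after their values were seen, were Rpl39 (0.98, limma adjusted p = 0.0011), Rps13 (0.61, limma adjusted p = 0.024) and Rpl6l (1.34, limma adjusted p = 0.0092). Rps13 did not pass without GO replicate 2 (adjusted p = 0.18) or NGO replicate 1 (adjusted p = 0.12), and Rpl6l without GO replicate 2 (adjusted p = 0.057) or with voom (adjusted p = 0.066). Ribosomal protein genes have many processed copies with which they can share reads.

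Of 82 tested nuclear genes of oxidative phosphorylation, the respiratory chain and ATP synthase, 60 fell and 1 rose, with a median of -1.06; under median scaling 35 fell and 5 rose, with a median of -0.53. Ndufa7, of complex I, had 249 and 294 TPM in GO, against 1188 and 1070 TPM in NGO (-2.06, SE 0.13, limma adjusted p = 1.1e-06). Ndufa12, also of complex I, fell by 2.08, Atp5o, of ATP synthase, by 1.51 and Cox5b, of cytochrome oxidase, by 1.32. Ndufa11, the gene that rose, by 0.69 and chosen after its values were seen, did not pass without NGO replicate 1 (adjusted p = 0.068) or GO replicate 2 (adjusted p = 0.077). Of the 13 mitochondrially encoded messengers, 9 fell and none rose, with a median of -1.17 (under median scaling 4 fell, median -0.62), and they held 1.33% and 1.42% of TPM in GO, against 3.73% and 3.11% in NGO. In mt-Nd5 and mt-Nd1, of complex I, the values were 396 and 449 TPM and 1021 and 987 TPM in GO, against 1486 and 1048 TPM and 2728 and 2088 TPM in NGO.

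Of 22 tested genes of pyruvate entry and the citrate cycle, 13 fell and none rose, with a median of -1.36; under median scaling 8 fell and 2 rose, with a median of -0.81. Idh3g, a subunit of isocitrate dehydrogenase, had 20.6 and 37.2 TPM in GO, against 238 and 258 TPM in NGO, and Idh3b, another subunit, had 0.923 and 0.626 TPM in GO, against 24.2 and 80.3 TPM in NGO. Sucla2, of succinyl-CoA ligase, fell by 1.48. In glucose transport, glycolysis and lactate metabolism, 18 were tested, 3 fell (16.7%) and 1, Ldhb, rose (5.56%). Of all genes tested, 13.2% fell and 11% rose. The median of these 18 genes was -0.34, and under median scaling 1 fell and 1 rose. Of 37 tested proteasome subunits, 16 fell and none rose, with a median of -0.64; under median scaling 8 fell, 2 rose and the median was -0.09. Psmc2, an ATPase of the regulatory particle, fell by 2.18. Psmc3, another of its ATPases, fell by 1.897, and Psmd14, its deubiquitinase, fell by 1.59.

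**Figure D3:**
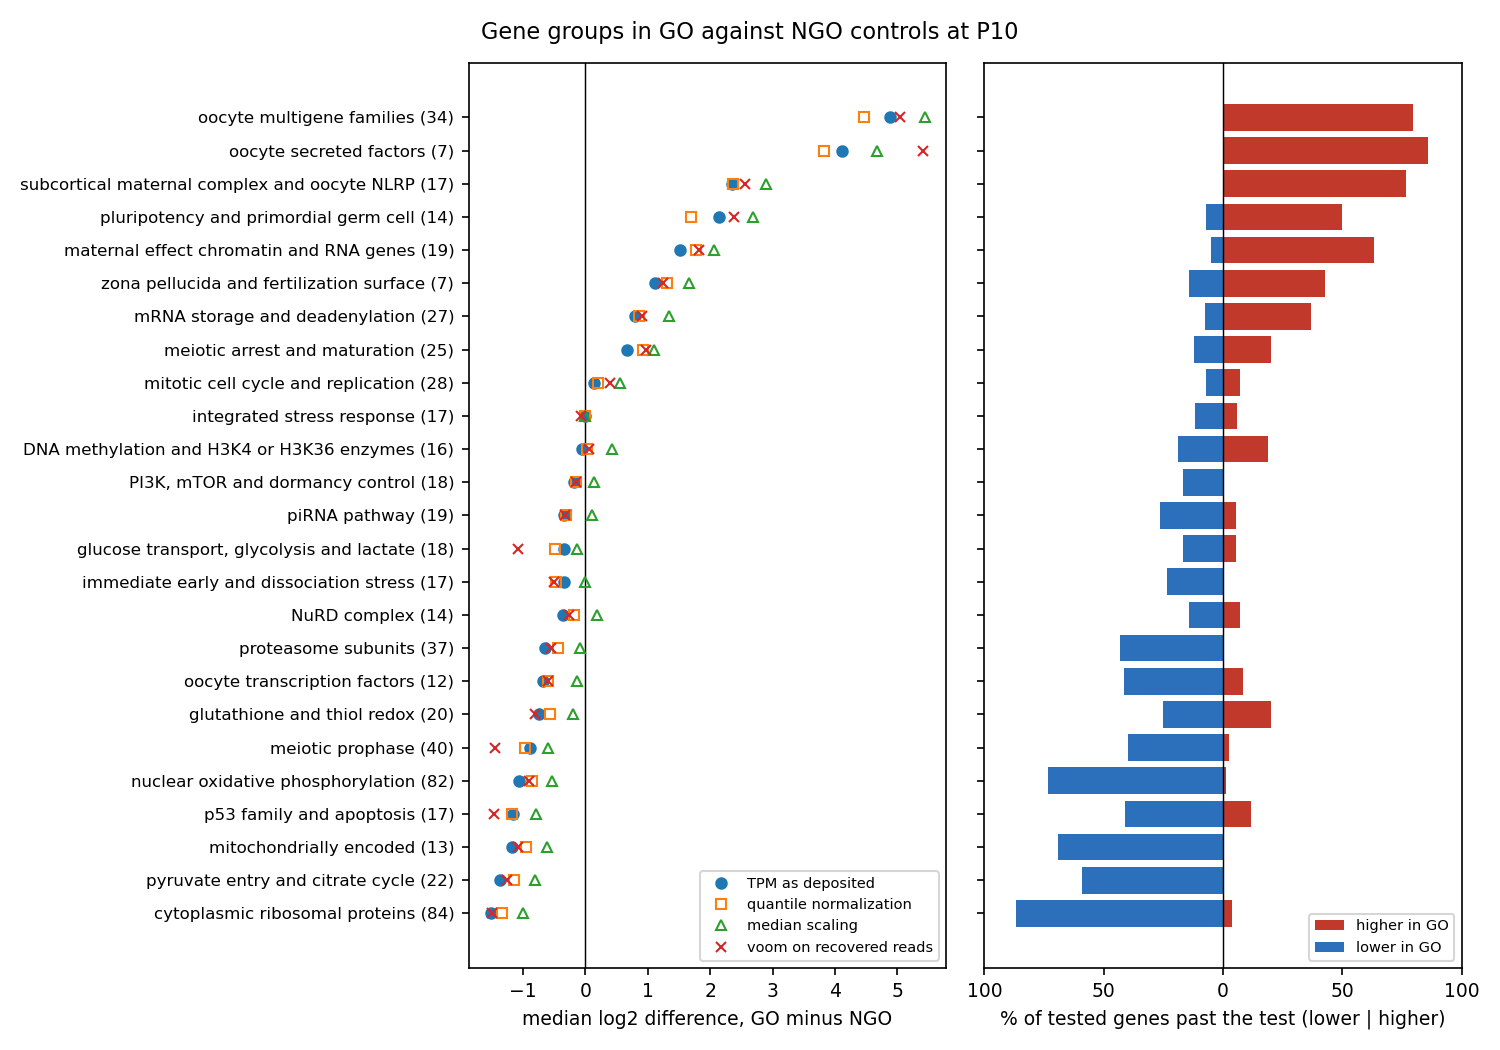
Left, median log2 difference (GO minus NGO) of 25 gene groups, with the number of genes tested in brackets, as deposited and under 3 other scalings. Right, percentage of tested genes in each group that rose (red) or fell (blue). Family, secreted and maternal complex genes lie at the top, with medians of 4.88, 4.11 and 2.35, and ribosomal protein genes at the bottom, at -1.52. Groups can share genes, and Oosp1, Oosp2 and Oosp3 are in both the family and secreted groups.

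Of 17 tested genes of the p53 family and apoptosis, 7 fell and 2 rose, with a median of -1.16. Pmaip1, a death-promoting BH3-only protein, had 0.482 and 0.784 TPM in GO, against 20.3 and 33.1 TPM in NGO (-4.05, SE 0.45, limma adjusted p = 4.8e-05). Bax, the pore-forming effector, had 3.09 and 0.170 TPM in GO, against 22.4 and 11.2 TPM in NGO, and Cdkn1a, the p53 target p21, had 0.185 and 0.302 TPM in GO, against 8.21 and 16.6 TPM in NGO. Bcl2, which protects against death, was listed at 0 in both GO libraries, against 3.52 and 11.5 TPM in NGO (limma adjusted p = 0.00038). Bax and Bcl2, of opposite action, both fell. Bcl2l10, a BCL2 relative of oocytes, had 1452 and 1585 TPM in GO, against 28.0 and 94.0 TPM in NGO, and rose by 4.86.

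Of 20 tested genes of glutathione and thiol redox, 4 rose and 5 fell, with a median of -0.74. Gsta4, a glutathione transferase for lipid peroxidation products, had 481 and 557 TPM in GO, against 2178 and 2584 TPM in NGO, and Cat, catalase, had 0.252 and 0.154 TPM in GO, against 12.6 and 37.6 TPM in NGO. Prdx2, a peroxiredoxin, had 242 and 335 TPM in GO, against 63.6 and 84.6 TPM in NGO. Of 14 tested genes of the NuRD complex, of which CHD4 is the ATPase, 1 rose and 2 fell. These shares of 7.14% and 14.3% compare with 11% and 13.2% over all genes tested. The median of the complex was -0.35, or 0.18 under median scaling. Rbbp7, its histone-binding subunit, had 3009 and 2356 TPM in GO, against 669 and 474 TPM in NGO, and Mbd3, its methyl-binding domain subunit, had 4.17 and 1.15 TPM in GO, against 14.5 and 9.35 TPM in NGO. Chd4 itself had 1.56 and 2.96 TPM in GO, against 1.63 and 1.85 TPM in NGO (0.22, limma adjusted p = 0.97). Genes of mitosis and replication (28 tested, 2 higher, 2 lower), immediate early genes (17 tested, none higher, 4 lower) and the integrated stress response (17 tested, 1 higher, 2 lower) had medians of 0.14, -0.35 and 0, against 0 over all genes tested. Over all genes tested, 11% rose and 13.2% fell, against 7.14% and 7.14% of the mitosis and replication genes. Under median scaling 6 of the mitosis and replication genes were higher and 1 lower, with a median of 0.55, and 2 immediate early genes were lower.

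Of the 10 largest falls, by the same rule as for rises, 9 are described, and these genes have varied roles. They were Uqcc3 (an assembly factor of respiratory complex III), Bex3 (an X-linked adaptor protein), Crabp1 (a binding protein of retinoic acid), Pard3bos3 (a non-coding gene opposite Pard3b), Prps1 (a phosphoribosyl pyrophosphate synthetase), Nupr1 (a stress-responsive nuclear protein), Itm2a (a membrane protein), Taf7l (a germ cell relative of a TFIID subunit) and Ghrh (growth hormone-releasing hormone). Their log2 differences ran from -6.47 to -5.95. Uqcc3 had 1.92 and 2.61 TPM in GO, against 264 and 313 TPM in NGO (-6.47, SE 0.36, limma adjusted p = 5.6e-07). Taf7l had 0.235 and 0.179 TPM in GO, against 85.1 and 71.8 TPM in NGO (-6.04, SE 0.76, limma adjusted p = 0.00012). The rule admits only genes whose libraries do not overlap, and 8 of these 9 were above 70 TPM in both NGO libraries. Reads of Pard3bos3 and its opposite gene cannot be told apart, since strandedness is not given.

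The NGO and GO levels of the risers and fallers were set beside those of NGO controls at P1 and P5, with no test because those controls have another genotype. Obox1 averaged 0, 0 and 6.07 TPM in NGO of P1, P5 and P10 and 872 TPM in GO. Oosp1 averaged 0.193, 13.2 and 6.81 TPM in NGO of P1, P5 and P10 and 647 TPM in GO. None of the 10 risers averaged above 14 TPM in NGO of any age. Uqcc3 averaged 209.5, 239 and 289 TPM in NGO of P1, P5 and P10 and 2.27 TPM in GO. Nupr1 averaged 10.8, 96.1 and 116 TPM in NGO of P1, P5 and P10 and 0.738 TPM in GO. Taf7l and Crabp1 also varied with age in NGO, at 285, 23.2 and 78.5 TPM and at 97.0, 975 and 139 TPM. The level in GO was below that of NGO of every age for each of the 9 fallers. Genes outside these sets, chosen after their values were seen, had other courses. Zp1, Zp2 and Zp3 averaged 455, 1098 and 1409.5 TPM in NGO of P5, against 98.1, 2356 and 1368 TPM in GO. Sohlh1 averaged 1112, 1005 and 92.2 TPM in NGO of P1, P5 and P10 and 1.03 TPM in GO.

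**Figure D4:**
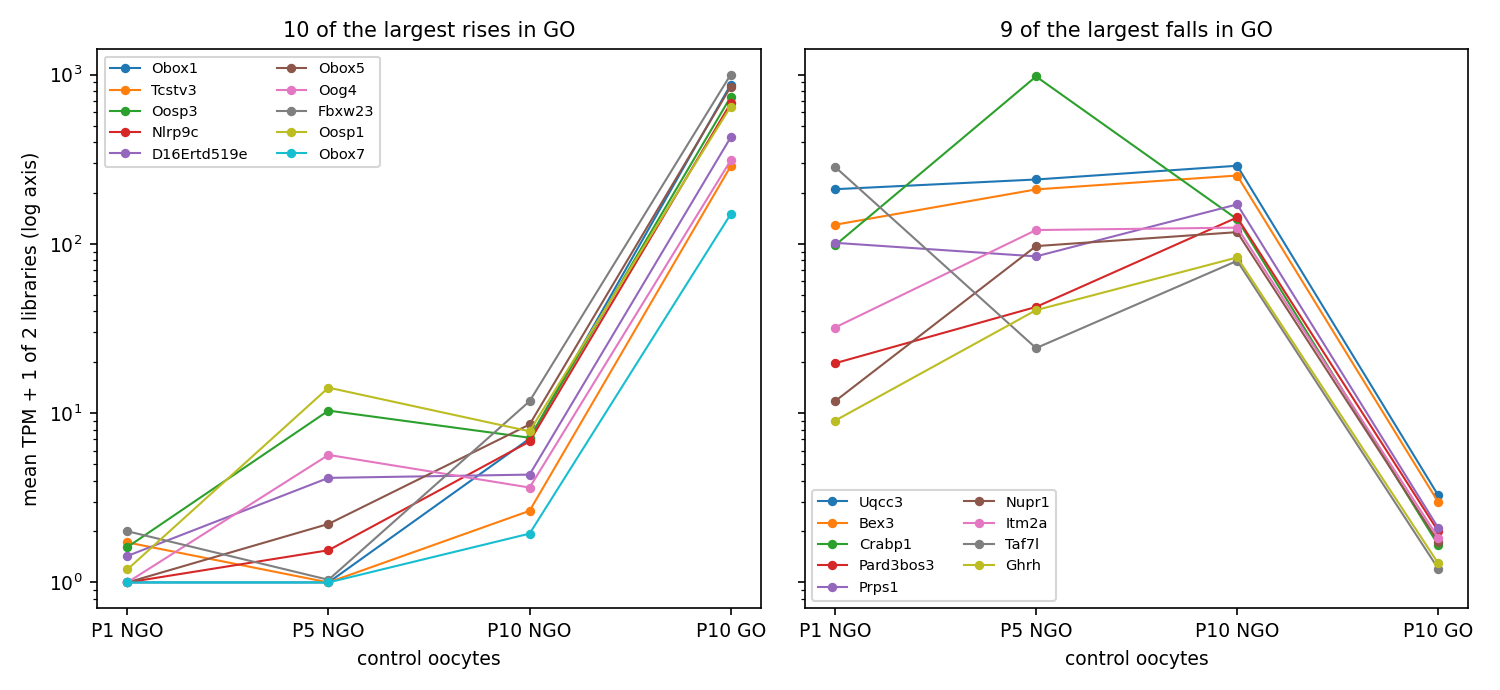
Mean TPM + 1 of 2 libraries (log axis) in control NGO of P1, P5 and P10 and in GO of P10, 1 line per gene, for the 10 genes with the largest rise (left) and 9 of those with the largest fall (right). The risers stay low in NGO of all ages (Oosp1 reaches 13.2 TPM at P5) and the fallers drop in GO; P1 and P5 controls carried Ddx4-Cre and 1 floxed allele.

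Annotated gene types differed in their counts of rises and falls. These counts cover only genes detected in these same libraries, so a gene of low level can enter through the class where it is high. Shares over all tested genes of a type were not counted. Among the genes described, 317 of 609 lincRNAs rose (52.1%) and 69 fell, with a median of 2.09, against 1389 of 9112 protein-coding genes that rose (15.2%) and 2163 that fell, with a median of -0.33. Of 253 antisense genes 39.5% rose and 16.2% fell, and of 1267 processed pseudogenes 8.998% rose and 20.3% fell. Antisense and intronic annotations cannot be told apart from their partners here. Among protein-coding genes, the shortest quartile by exon length (102 to 2629 bp) had 31.6% lower and 20.6% higher, and the longest quartile (6904 to 123179 bp) had 18.8% lower and 12.2% higher. The X chromosome had 28.8% of 490 genes lower and 16.3% higher, against 21.9% and 18.2% of 11317 on autosomes.

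**Figure D5:**
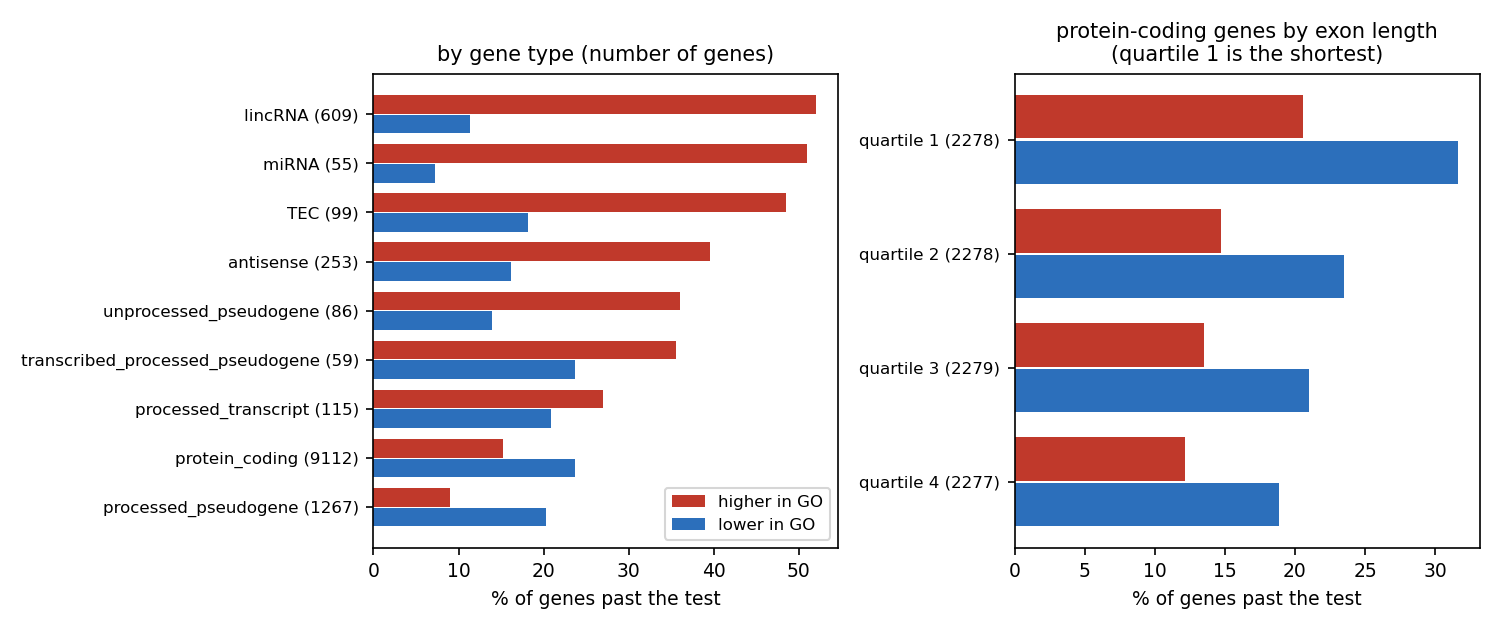
Percentage of genes that rose (red) or fell (blue) in GO, by GENCODE M21 gene type with at least 50 genes (left) and for protein-coding genes by quartile of exon length (right), with numbers of genes in brackets. LincRNAs rose in 52.1% and protein-coding genes in 15.2%. Only genes detected in these same libraries are counted, so a gene of low level can enter through the class where it is high.

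Oocyte identity markers summed to 7358 and 7041 TPM in GO, against 6271 and 6677 TPM in NGO, so both classes hold oocyte transcripts. Of 22 granulosa cell markers, 14 were tested, 4 rose and none fell, and their sum was 141 and 127 TPM in GO, against 10.97 and 17.97 TPM in NGO. The sum came mainly from Esr2 (56.1 and 41.0 TPM in GO, against 0.769 and 0.467 TPM in NGO), Serpine2 (42.8 and 32.4 TPM in GO, against 1.39 and 8.54 TPM in NGO), Nr5a2 (14.9 and 23.7 TPM in GO, against 0.176 and 0.170 TPM in NGO) and Cdh2 (12.4 and 17.7 TPM in GO, against 0.0964 and 1.51 TPM in NGO). Of the 22 markers, 11 and 10 were above 0 in the GO libraries and 10 and 11 in the NGO libraries. Markers at or near 0 included Foxl2, Amh, Nr5a1, Hsd17b1 and Wt1, at 0 in all 4 libraries, and Fshr, at most 0.0549 TPM. The part of the markers that rose in the other results was not tested. Stromal and theca markers summed to 8.23 and 6.54 TPM in GO, against 18.9 and 5.10 TPM in NGO, endothelial markers to 6.64 and 2.96 TPM in GO, against 5.86 and 0.728 TPM in NGO, and blood markers to 3.15 and 0.829 TPM in GO, against 0 and 4.18 TPM in NGO. No gene of these 3 lists passed the test; under the other scalings at most 1 gene of a list did.

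The same contrast was made in the Chd4 knockout, whose GO and NGO levels come from 4 other libraries. These libraries do not enter the control differences, but they are among the 16 of the fit and so share its filter and its estimate of the spread. In GcKO oocytes 4180 of 20470 genes passed (20.4%), 2354 higher (11.5%) and 1826 lower (8.92%) in GO. This balance turned after quantile normalization, with 2369 higher and 2716 lower, and with voom 2911 were higher and 1425 lower. Of the 2216 genes that rose in controls, 83.4% had the same sign in GcKO and 1040 passed in the same direction, with medians of 1.51 in GcKO and 2.80 in controls. Of the 2689 that fell in controls, 81.2% had the same sign and 1059 passed, with medians of -0.85 in GcKO and -1.95 in controls. These genes were chosen by their difference in controls, which by itself makes the control medians larger. Oosp1 rose by 6.403 in GcKO and 6.37 in controls, Tcstv3 by 6.51 and 6.77, and Zar1l by 6.21 and 6.07.

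A test of the difference of the GO minus NGO effect, GcKO minus Gctrl, passed for 1527 of 20470 genes (7.46%), 990 positive (4.84%) and 537 negative (2.62%). The excess of positive differences depends on the scaling, since 852 were positive and 900 negative under median scaling and 998 and 894 after quantile normalization. Among genes that rose in controls it passed for 413, with the GcKO effect smaller in 390, and among those that fell for 540, with the GcKO effect smaller in 530. Bex3 had -0.15 in GcKO and -6.33 in controls, a difference of 6.18 (limma adjusted p = 6.8e-05). Sohlh1 had -0.95 in GcKO and -5.52 in controls, a difference of 4.57 (limma adjusted p = 0.00014), and Syce1 had -1.86 in GcKO and -5.21 in controls, a difference of 3.35 (limma adjusted p = 6.8e-05). Mei4 had -0.83 in GcKO and 5.27 in controls. Obox1, Oosp3 and D16Ertd519e differed by 3.85, 2.53 and 1.97 in GcKO, against 6.95, 6.70 and 6.64 in controls.

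The genes with the 5 largest positive and 5 largest negative differences of effects, of those with a mean of at least 5 TPM in a group and predicted models aside, had estimates of opposite sign in the genotypes. Positive in GcKO and negative in controls were Serpinb6c, a serine protease inhibitor, Meiob, a meiotic DNA-binding protein, Lrrc19, Snord73a, a small nucleolar RNA, and Spint4, another protease inhibitor. Serpinb6c had 5.12 in GcKO and -2.99 in controls (difference 8.11, limma adjusted p = 0.00094). The GcKO estimates of Serpinb6c, Meiob and Lrrc19 passed the test themselves, and those of Snord73a and Spint4 did not (limma adjusted p = 0.45 and 0.13). In controls Spint4 had 0 and 0.178 TPM in GO, against 49.7 and 39.8 TPM in NGO, and Snord73a was listed at 0 in both GO libraries, against 87.7 and 27.3 TPM in NGO. In controls the falls of Serpinb6c, Meiob and Lrrc19 were -1.98, -1.55 and -1.17 without NGO replicate 1 (limma adjusted p = 0.10, 0.18 and 0.31), and that library held most of their TPM. Negative in GcKO and positive in controls were Cpeb4, an RNA-binding regulator of polyadenylation, Psg16, Tmem274, Tcf7l2, a transcription factor of Wnt signalling, and Fam107b, of which the GcKO estimates of Tcf7l2 and Fam107b (-0.98 and -0.78) did not pass. Tcf7l2 had 71.0 and 55.3 TPM in control GO, against 0.772 and 0.450 TPM in control NGO, and Fam107b had 128 and 129 TPM in control GO, against 2.63 and 1.26 TPM in control NGO. The rise of Tmem274 in controls did not pass without any of several libraries, with limma adjusted p of 0.31 without GO replicate 1, 0.078 without NGO replicate 1 and 0.14 without NGO replicate 2, nor did that of Psg16 without GO replicate 1 (adjusted p = 0.052).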

How the data were processed

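RNA of mouse oocytes was extracted with RNeasy Plus Micro and sequenced from NEBNext Single Cell/Low Input libraries as paired reads on a HiSeq X, per the labels' protocols. The authors deposited TPM per gene and library. The submitters' processing notes name Trimmomatic 0.39, STAR 2.5.4b, SAMtools 1.9, featureCounts 2.0.1 and GRCm38; the annotation, gene lengths, strandedness, treatment of reads with several hits and the way TPM was made are not given in the sources used here. Depth was recovered from TPM and GENCODE M21 exon lengths (51618 of 53722 symbols matched), with 98.8% to 99.1% of values under 20 reads within 0.05 of a whole read in the 4 libraries; TPM itself keeps no depth.

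Genes that reached TPM 1 in 2 or more of the 16 oocyte libraries were tested in 1 limma 3.58.1 fit (R 4.3.3) of log2(TPM + 1) with 8 residual degrees of freedom, two-sided, with Benjamini-Hochberg adjustment over 20470 genes; the procedure was tested on simulated data. Python 3.11.15 (numpy 2.4.6, pandas 2.3.3) made the tables and matplotlib 3.10.9 the figures. The members, gene lists, rule and tests were chosen with earlier results of these data known. The rule names the 10 largest rises and falls past the test with a mean of at least 5 TPM in a group, no overlap and no predicted model, the 10 most abundant genes of each class, up to 6 genes of smallest p per list (all of a list of 7 or fewer) and the 5 largest differences of effects each way. A few genes chosen in this way are not described here. Alternatives were a pseudocount of 0.1, a filter at TPM 5 or none, other sets of genes or libraries in the fit, a replicate block, quantile normalization, median scaling over genes of at least 10 TPM, voom and leaving out each library.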

Additional observations from a re-analysis of the deposited data

Results flagged for a closer look

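The GO minus NGO effect differed between GcKO and Gctrl oocytes for 1527 genes by a limma test of the difference itself. The values below are this difference, GcKO minus Gctrl, on the log2(TPM + 1) scale, for the genes named in the text that passed it with an adjusted p under 0.05. Among the largest rises and abundant genes it was -3.097 for Obox1, -4.17 for Oosp3, -4.67 for D16Ertd519e, 1.20 for Dppa3, -0.90 for Dppa5a, -1.32 for Hsp90aa1, -0.88 for Spin1 and 1.95 for Hsp90ab1. Among the largest falls it was 4.14 for Uqcc3, 6.18 for Bex3, 5.84 for Crabp1, 4.54 for Pard3bos3, 5.59 for Itm2a and 4.18 for Ghrh. In maternal and regulatory genes it was 2.31 for Nlrp5, -2.36 for Tet3, -2.84 for Dnmt3l, 4.57 for Sohlh1, 1.47 for Figla, 0.66 for Sub1, 1.91 for Tbpl2, 1.32 for Ddx6, -2.05 for Sall4, 3.14 for Eif4ebp1 and 2.44 for Mbd3.

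In meiotic and piRNA genes the difference was 3.35 for Syce1, 2.66 for Sycp3, 1.48 for Smc1b, -6.10 for Mei4 and 1.67 for Mael. In genes of ribosomes, respiration, the proteasome and the citrate cycle it was 0.60 for Rpl26, 0.98 for Rplp1, 0.90 for Atp5o, 1.38 for Ndufa12, 1.05 for Cox5b, 1.07 for Psmc2, 0.89 for Psmd14 and 2.81 for Idh3g. In death and redox genes it was 4.98 for Pmaip1, 2.89 for Bcl2, 2.71 for Bax, 1.44 for Gsta4 and 5.33 for Cat, with Bcl2 listed at 0 in both control GO libraries. The 5 largest differences each way, by the rule for named genes, were 8.11 for Serpinb6c, 7.23 for Meiob, 7.22 for Lrrc19, 7.13 for Snord73a, 7.02 for Spint4, -6.44 for Cpeb4, -6.41 for Psg16, -6.30 for Tmem274, -6.29 for Tcf7l2 and -6.28 for Fam107b. The genes of the first groups were chosen by their control difference, so an estimate nearer to 0 in GcKO is favoured by the choice. No group has more than 2 libraries, and no single library was tested as an outlier.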

How the results depend on the processing

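The count of genes that differed between GO and NGO controls, 4968, stayed between 4674 and 5625 under the other pseudocount, filters, scalings, voom and the replicate block. A fit of only the groups compared, which has fewer libraries to estimate the spread, called 1072 (547 higher, 525 lower), none in GcKO by limma (0, against 4180; 3957 at an unadjusted p under 0.05) and 560 differences of effects, against 1527. Leaving out 1 library gave 3798 to 4436 in controls (1792 to 1989 higher, 1909 to 2447 lower), 3328 to 4350 in GcKO and 1092 to 2178 for the difference. Voom gave 2562 higher and 2434 lower, and 4996 in all. Under median scaling Dppa3 and Sub1 turned to 0.17 and 0.27. Of 127 named genes that were called, 111 were called under every alternative apart from the fit of only the groups compared and the omission of libraries, and 101 also without each library; in the fit of only the groups compared 58 of the 127 were called and 69 were not. The replicate block gave 5612 calls in controls, 4855 in GcKO and 2138 for the difference. Whether equal replicate numbers pair GO and NGO libraries is not known here. The replicate differences of GO and NGO correlated with r of 0.0493, which cannot decide it because paired libraries need not deviate together. With 2 libraries a group, differences that are small against the spread between libraries were not detectable, which does not show that they are absent.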

Other observations

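The most abundant lincRNAs of GO were chosen after their values were seen, and a choice by GO level favours genes higher in GO. Each rose. Gm43303 had 3651 and 3483 TPM in GO, against 1097 and 1217 TPM in NGO (1.62, SE 0.19, limma adjusted p = 6.2e-05). Gm3143 had 1675 and 1138 TPM in GO, against 23.4 and 36.04 TPM in NGO (5.52, SE 0.56, limma adjusted p = 2.6e-05). Gm5 had 1246 and 1286 TPM in GO, against 24.6 and 46.2 TPM in NGO (5.19, SE 0.42, limma adjusted p = 5e-06). The reads of these genes cannot be assigned to a strand here.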
